A study of Mus musculus with 13 samples.

Results

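The 10 genes described here are Trp53, which encodes p53, its inhibitors Mdm2 and Mdm4, and 7 genes that p53 is known to activate (Bax, Bbc3, Ccng1, Sesn2, Zmat3, Phlda3 and Trp53inp1). They were chosen by symbol, all 10 were among the 15213 genes of the expression table, and all 10 passed the filter on low values, which left 11795 genes tested. RNA sequencing covered 10 mammary tumors from 6 MMTV-tTA TetO-Tsg101 double transgenic females (MtTA Teto-TSG101wt in the labels) and mammary glands of 3 wild-type FVB females. In the tumor-bearing mice the tetracycline-controlled transactivator was driven by the mouse mammary tumor virus promoter, which is active mosaically in luminal mammary epithelium and also in the salivary gland, and it turned on an HA-tagged mouse Tsg101 transgene joined to a luciferase reporter. All animals had the FVB background, and no agent was given to the sequenced groups as far as the labels say. Of the 6 mice, 3 gave 1 tumor, 2 gave 2 tumors (tumors 2 and 3, tumors 5 and 6) and 1 gave 3 tumors (tumors 8, 9 and 10), so that the tumors are not fully independent of each other. The ages of the animals and the reproductive stage of the glands are not in the labels. Both groups were bulk tissue, in which fewer cells of a type and less RNA per cell cannot be told apart.

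p53 is a transcription factor that is held at a low level in unstressed cells by MDM2, a ubiquitin ligase, while the related MDM4 masks its activation domain. Because Mdm2 is itself a p53 target, the pair forms a feedback loop, and DNA damage, oncogene signals through p19Arf (a product of Cdkn2a) or surplus ribosomal proteins break it. Stabilized p53 then raises the transcripts of genes for cell cycle arrest, apoptosis, DNA repair and metabolic control. The study followed MDM2, p53, p21 and p19Arf as proteins in these tumors, and p53 itself is regulated mainly as a protein, a level that the RNA values below do not measure.

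The p53 response element consists of a pair of copies of a consensus decamer, and its best match near each start site is shown here because p53 is known to bind DNA through this element. The search took every 20-base window, with no spacer between the decamers, in the RefSeq promoter windows of GRCm38.p6 (mm10), which run from 250 bases before to 50 bases after an annotated start of a gene. For a gene with several such windows the best match is given. The element reads the same on both strands. Windows were given for 8 of the 10 genes, and those of Zmat3 and Trp53inp1 were not analysed here. In the sequences below, capitals mark bases that match the consensus and lower case marks bases that do not.
Ccng1: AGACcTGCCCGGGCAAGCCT
Trp53: GGACTTGCCCttACTTGTTa
Bbc3: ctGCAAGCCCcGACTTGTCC
Bax: AGcaTAtCCCAGGCAAGCTT
Mdm4: AGGtATGCTgtGGCAAGCCT
Cdkn1a: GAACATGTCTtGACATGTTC

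The site of Ccng1 matched 19 of 20 bases at chr11:40755462-40755481 on the minus strand, 195 bases before the start. Those of Trp53 (chr11:69580284-69580303, plus strand), Bbc3 (chr7:16309486-16309505, plus strand), Bax (chr7:45467090-45467109, minus strand) and Mdm4 (chr1:133025626-133025645, minus strand) matched 17. The sites of Bbc3 and Mdm4 lie before a start inside the gene, and the other windows of these genes matched at most 15 and 14. The best sites of Mdm2, Sesn2 and Phlda3 matched 15, a score that 76.6% of all 32851 windows reached. A score of 17 or more was held by 5 of the 8 genes (62.5%), against 7.2% of the 27025 genes with a window, and a score of 19 or more by 1 of the 8 (12.5%), against 0.107%. The site of Cdkn1a, shown for comparison because this gene is used below, matched 19 bases at chr17:29090928-29090947 on the plus strand. A match describes the letters only, and elements elsewhere in introns or farther upstream lie outside these windows. The 250 bases before the start of Ccng1, the gene with the closest match, are given with the same site in capitals.
Ccng1 upstream: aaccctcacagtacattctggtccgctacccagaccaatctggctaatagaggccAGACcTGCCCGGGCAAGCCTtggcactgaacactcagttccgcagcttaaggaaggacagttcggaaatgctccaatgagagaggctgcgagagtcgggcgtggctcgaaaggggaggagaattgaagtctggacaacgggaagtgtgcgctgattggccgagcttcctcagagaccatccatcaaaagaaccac

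Values are normalized cpm, the read counts of a library over its size as corrected by the scaling factor of the authors. Depth was 6176269 to 16835397 reads in the tumors and 11672487 to 23889042 reads in the glands, and 3 reads, up to which a gene without any read could lie, corresponded to 0.128 to 0.683 normalized cpm. Tsg101 itself, counted from the endogenous gene and the transgene together, had 49.9 to 101 normalized cpm in the tumors and 45.6 to 61.0 in the glands, and 6 of the 10 tumors lay above all glands (log2 fold change 0.30, adjusted p = 0.296 by limma). The labelled tissues differed in cell content: epithelial markers summed to 2084 to 3120 normalized cpm in the tumors and 1293 to 2869 in the glands, squamous markers to 461 to 3419 against 6.47 to 21.3, adipocyte markers to 75.3 to 366 against 3728 to 10717, and milk genes to 1384 to 76623 against 165034 to 305121. Endothelial markers summed to 39.0 to 93.0 in the tumors and 167 to 454 in the glands, and lymphocyte markers to 8.15 to 94.4 against 18.1 to 423, with 1 of 8 lower in the test and 5 more lower in the fit without the filter. Macrophage markers summed to 277 to 552 in the tumors and 247 to 262 in the glands, every tumor above every gland, and 1 of the 6, Cd68, was higher (1.31). Skeletal muscle markers summed to 1900 in tumor 4 and 323 in tumor 10, and to 2.12 to 20.6 in every other library. The part of this difference in cell content in the results below was not tested. Of the 10 epithelial markers, 2 were higher in the test (20%, against 17.2% of all genes), Krt7 (log2 fold change 3.32) and Cldn4 (1.59). Both enter the scaling to the epithelial markers used below, which therefore also follows their rise.

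Libraries also stood apart within the groups. The 76 listed cytosolic ribosomal protein genes took 1.25% and 1.38% of reads in glands 1 and 2 but 3.70% in gland 3, and between 1.99% (tumor 4) and 6.51% (tumor 1) in the tumors. The short noncoding RNAs Rn7sk, Rmrp and Rpph1 summed to 0.685 and 1.91 normalized cpm in glands 1 and 2 and 287 in gland 3, and to between 21.1 (tumor 4) and 1401 (tumor 9) in the tumors. The first principal component of the deviations from the group means held 56.5% of the variance and placed gland 3, tumor 9 and tumor 1 at one end. Results that rest on these libraries are therefore also given without them or with these levels as a covariate, both chosen after seeing the data. Glands 1 and 2 lay below every tumor in both levels, and only gland 3 lay within the tumor range. These covariates are therefore largely confounded with the group, and the fits that use them lean on gland 3.

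None of the 10 genes was significantly deregulated in the tumors, by the criterion of an adjusted p below 0.05 and a change of more than 2-fold (limma on log2 of normalized cpm + 1, Benjamini-Hochberg over 11795 genes). Over all genes tested, 2029 met it, which is 17.2%. The adjusted p alone was below 0.05 for 1 of the 10, Bbc3, against 27.8% of all genes, and the unadjusted p for 3 (Bbc3, Ccng1 and Zmat3), against 38.3% of all genes. All 10 fitted changes lay within 2-fold, as did 80.7% of those of all genes. The 95% interval stayed within 2-fold in both directions for 6 of the 10 genes (52.3% of all genes), reached past 2-fold lower for the other 4 (Bbc3, Ccng1, Zmat3 and Sesn2) and past 2-fold higher for none. The median log2 fold change of the 10 was -0.21, with 4 above and 6 below 0, and that of all genes tested was 0.01. edgeR's quasi-likelihood test and DESeq2 on the recovered reads also called 0 of the 10 at this criterion.

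**Figure D1:**
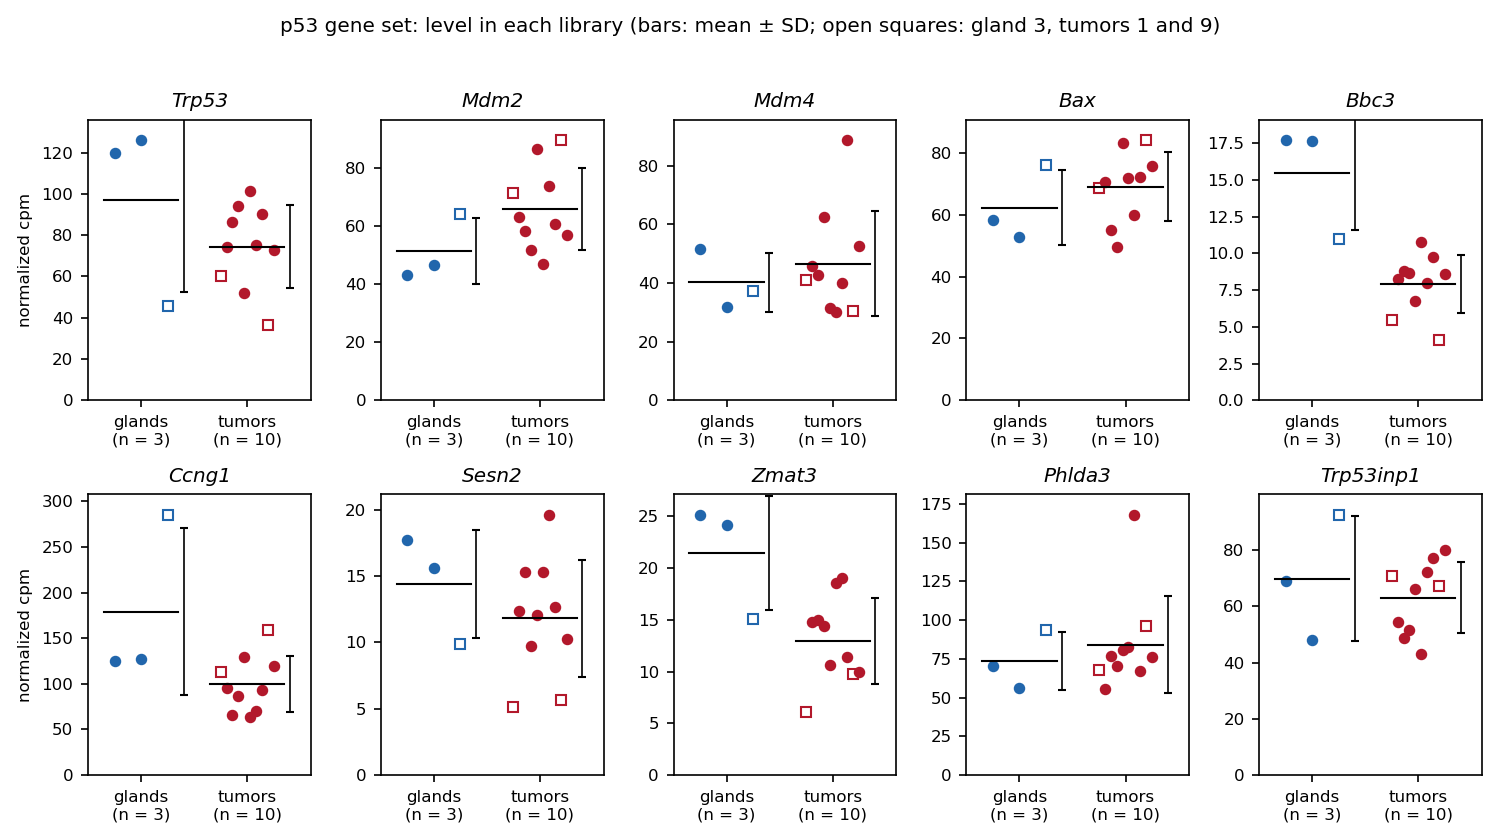
Normalized cpm (vertical axis, linear from 0) of the 10 genes in each of the 3 glands and 10 tumors; points are libraries, horizontal lines are means, error bars are SD, and open squares are gland 3 and tumors 1 and 9. The tumor and gland points overlap in 9 of the 10 panels, and only for Bbc3 do all 10 tumors, at 4.10 to 10.8, lie below the glands, at 11 to 17.7.

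Trp53 (chr11:69580348-69591873, plus strand, GRCm38.p6 as for all positions given here) was expressed in every library. It had 60.1, 74.1, 86.3, 93.9, 52.0, 101, 75.4, 90.5, 36.6 and 72.8 normalized cpm in tumors 1 to 10 and 120, 126 and 45.6 in glands 1 to 3. Glands 1 and 2 lay above every tumor, whereas gland 3 lay below 9 of the 10 tumors. The means were 74.3 ± 20.1 (SD, n = 10) and 97.1 ± 44.7 (SD, n = 3), with a log2 fold change of -0.30 ± 0.32 (SE) and a 95% interval from -0.99 to 0.39 (adjusted p = 0.532, limma). The value depended on each of the glands: it was -0.086 (adjusted p = 0.924) without gland 1, -0.050 (adjusted p = 0.958) without gland 2 and -0.77 (adjusted p = 0.0622) without gland 3. It was also -0.62 (adjusted p = 0.0387) without gland 3 and tumors 1 and 9, -0.92 (adjusted p = 0.00237) with libraries scaled to the epithelial markers, and 0.31 (adjusted p = 0.282) with the ribosomal protein level as a covariate.

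Neither gene for an inhibitor of p53 was called. Mdm2 (chr10:117688875-117710758, minus strand), the ubiquitin ligase, had 71.4, 63.0, 58.1, 51.6, 86.5, 47.0, 73.8, 60.6, 89.4 and 56.8 normalized cpm in tumors 1 to 10 and 43.2, 46.7 and 64.2 in the glands. Every tumor exceeded glands 1 and 2, and 4 tumors (1, 5, 7 and 9) exceeded gland 3 as well. The log2 fold change was 0.34 ± 0.20 (SE; 95% interval -0.09 to 0.77, adjusted p = 0.230, limma), from means of 65.8 ± 14.2 (SD, n = 10) and 51.4 ± 11.3 (SD, n = 3). The ratio of the means was 1.28, and a rise of 2-fold lay outside the interval. With the ribosomal protein or the short noncoding RNA level as a covariate the fitted value was 0.02 (adjusted p = 0.929) or 0.081 (adjusted p = 0.779). Scaling each library to the epithelial markers turned its sign (-0.28). Mdm4 (chr1:132986105-133030587, minus strand), which binds p53 without degrading it, had a median of 41.9 normalized cpm in the tumors, from 30.2 in tumor 6 to 88.6 in tumor 8, and 51.4, 32.0 and 37.4 in the glands. Its tumors lay on both sides of the glands, 3 above all of them and 3 below all of them (log2 fold change 0.15 ± 0.28 SE, 95% interval -0.45 to 0.76, adjusted p = 0.729, limma).

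Of the apoptosis effectors, Bbc3 passed the adjusted p but not 2-fold, and Bax passed neither. Bbc3 (chr7:16308398-16318334, plus strand) encodes PUMA, a BH3-only protein that neutralizes BCL2 relatives. It had 5.46, 8.27, 8.77, 8.64, 6.72, 10.8, 7.97, 9.77, 4.10 and 8.60 normalized cpm in tumors 1 to 10 and 17.7, 17.7 and 11 in glands 1 to 3, on 18 to 184 reads in a tumor and 90 to 413 in a gland. All 10 tumors lay below all 3 glands, which was the case for 8.53% of all genes tested, but the highest tumor (tumor 6) and gland 3 were close. Bbc3 fell by 0.89 on the log2 scale (SE 0.24; 95% interval -1.41 to -0.38, adjusted p = 0.0123, limma), from a gland mean of 15.4 ± 3.87 (SD, n = 3) to a tumor mean of 7.91 ± 1.98 (SD, n = 10). The change stayed short of 2-fold. Without gland 3 it passed 2-fold, at -1.11 (adjusted p = 0.00703), whereas the adjusted p rose to 0.0809 without gland 1, 0.071 without gland 2 and 0.0687 with the ribosomal protein level as a covariate, under which the change was -0.50.

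Bax (chr7:45461695-45466903, minus strand), which forms pores in the outer mitochondrial membrane, had a median of 71.2 normalized cpm in the tumors, from 49.6 in tumor 4 to 84.0 in tumor 9, and 58.2, 52.7 and 76.0 in the glands. The gland values spanned much of the tumor range, with 2 tumors above all glands and 1 below (log2 fold change 0.15 ± 0.18 SE, 95% interval -0.23 to 0.52, adjusted p = 0.585, limma). In the GENCODE annotation 192 bases of its exons are shared with Gm45808 on the same strand. Gm45808 is not among the genes of the table, and how reads there were assigned was not tested.

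Ccng1 and Zmat3 had lower means in the tumors without passing the limma test on all libraries. Ccng1 (chr11:40748552-40755309, minus strand) encodes cyclin G1, which recruits a phosphatase to MDM2. It had 113, 95.8, 65.8, 86.6, 130, 63.5, 69.7, 93.2, 159 and 120 normalized cpm in tumors 1 to 10 and 125, 127 and 285 in glands 1 to 3. Glands 1 and 2 lay close together within the upper tumor range, and gland 3 was far above every library. The log2 fold change was -0.79 ± 0.30 (SE, 95% interval -1.43 to -0.14, adjusted p = 0.0667, limma), and leaving out gland 3 moved it to -0.40 (adjusted p = 0.314). In limma it was -0.87 (adjusted p = 0.034) without tumor 9 and -0.93 (adjusted p = 0.0475) without the mouse of tumors 8, 9 and 10. With the ribosomal protein or the short noncoding RNA level as a covariate it passed the criterion, at -1.37 (adjusted p = 0.000122) and -1.33 (adjusted p = 0.000297). edgeR and DESeq2 gave an adjusted p of 0.0453 and 0.0381 within 2-fold.

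Zmat3 (chr3:32334792-32365665, minus strand) encodes a zinc finger protein that binds RNA and acts in splicing. It had 6.12, 14.8, 15.0, 14.4, 10.6, 18.6, 19.1, 11.4, 9.79 and 9.93 normalized cpm in tumors 1 to 10 and 25.1, 24.2 and 15.1 in glands 1 to 3. Glands 1 and 2 exceeded every tumor, while tumors 6 and 7 exceeded gland 3. The log2 fold change was -0.71 ± 0.28 (SE; 95% interval -1.31 to -0.12, adjusted p = 0.0713, limma). DESeq2 gave an adjusted p of 0.0494 and edgeR one of 0.0671, both within 2-fold, and limma gave 0.047 without tumor 6 and 0.0469 without tumor 7. The value was -0.94 (adjusted p = 0.0355) without gland 3 and -0.20 (adjusted p = 0.468) with the ribosomal protein level as a covariate, so that Ccng1 and Zmat3, alike in the fit, moved in opposite directions under the same alternatives.

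The genes for stress metabolism and for growth signaling were not called. Sesn2 (chr4:132492804-132510456, minus strand), whose product restrains mTORC1 and which is also a target of the stress factor ATF4, had a median of 12.2 normalized cpm in the tumors, from 5.16 in tumor 1 to 19.6 in tumor 7, and 17.8, 15.6 and 9.87 in the glands (log2 fold change -0.32 ± 0.33 SE, 95% interval -1.01 to 0.38, adjusted p = 0.516, limma). Phlda3 (chr1:135766085-135769134, plus strand), whose product competes with AKT for membrane lipids, had a median of 76.3 in the tumors, from 55.2 in tumor 2 to 168 in tumor 7, and 70.2, 56.3 and 93.4 in the glands (log2 fold change 0.16 ± 0.26 SE, 95% interval -0.40 to 0.72, adjusted p = 0.695, limma). In both genes the single highest library was tumor 7. Trp53inp1 (chr4:11156441-11174379, plus strand), whose product promotes p53 phosphorylation and autophagy, had a median of 66.7 in the tumors, from 43.0 in tumor 6 to 80.0 in tumor 10, and 69.1, 48.0 and 92.5 in the glands (log2 fold change -0.12 ± 0.22 SE, 95% interval -0.59 to 0.35, adjusted p = 0.726, limma). With the ribosomal protein level as a covariate the value of Trp53inp1 was -0.48 (adjusted p = 0.0441, limma). All the tumor values of Trp53inp1 but that of tumor 6 fell inside the gland range.

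Per kilobase of annotated exon, the order of the 10 genes in the tumors ran from Phlda3 (53.9 ± 20.1 normalized cpm per kb, SD, n = 10), Bax (43.8 ± 7.16) and Ccng1 (28.4 ± 8.79) through Trp53 (18.4 ± 4.97), Mdm2 (13 ± 2.79) and Trp53inp1 (9.76 ± 1.97) to Bbc3 (3.72 ± 0.93), Sesn2 (3.40 ± 1.27), Mdm4 (3.15 ± 1.21) and Zmat3 (1.13 ± 0.36). Phlda3 and Bax, as well as Bbc3, Sesn2 and Mdm4, differed by less than their spread. In the glands Ccng1 (51.0 ± 26.1, SD, n = 3) stood first, ahead of Phlda3 (47.0 ± 12) and Bax (39.5 ± 7.70), by less than the spread of the 3 glands. Mdm4 and Zmat3 had the longest annotated exons of the 10, at 14798 and 11435 bases, and the levels per length assume that all annotated exons are transcribed.

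**Figure D2:**
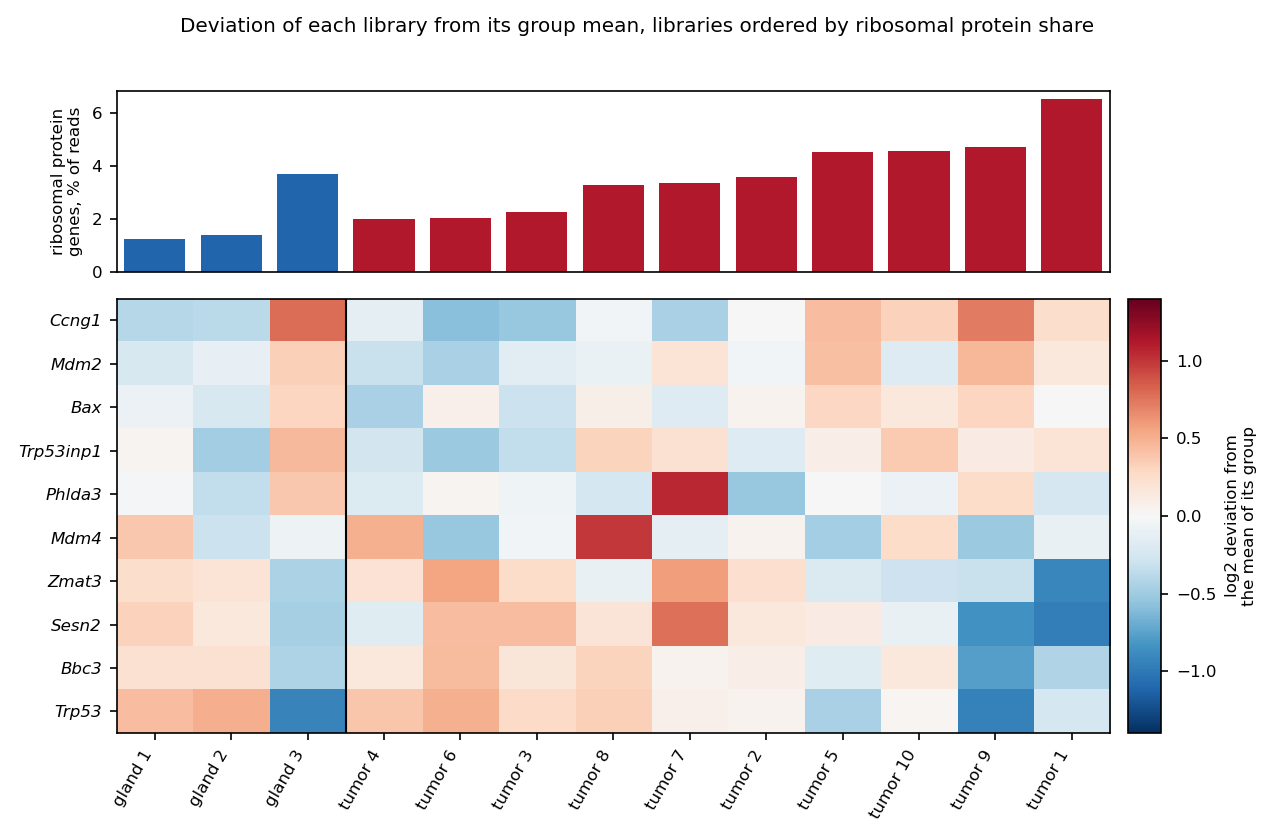
Top, share of reads in ribosomal protein genes (percent) in each library, ordered within glands (blue) and tumors (red). Bottom, log2 deviation of each gene from the mean of its own group (color scale). Gland 3 and tumor 9 are low for Trp53, Bbc3, Sesn2 and Zmat3 and high for Ccng1, Mdm2 and Bax, and tumor 7 is the highest tumor for Phlda3, Sesn2 and Zmat3.

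Trp53, Bbc3, Sesn2 and Zmat3 were lowest in gland 3 among the glands, and their 3 lowest tumors came from tumors 1, 4, 5, 9 and 10, with tumors 1 and 9 among them for each gene. Ccng1, Mdm2 and Bax were highest in gland 3 and in tumor 9, with tumor 5 the next tumor in all 3. Bbc3, for example, had 4.10 normalized cpm in tumor 9 and 9.77 in tumor 8 of the same mouse, while Ccng1 had 159 and 93.2. The share of ribosomal protein genes in these libraries was 4.70% (tumor 9), 3.27% (tumor 8) and 3.70% (gland 3); its part in the levels of the 10 genes was not tested beyond the covariate.

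For 5 of the 10 genes the tumors of 1 mouse spread more than the mouse means did. Some mouse means average 2 or 3 tumors and so vary less than single tumors, which limits this comparison. For Trp53 the SD between tumors of the same mouse was 0.58 on the log2 scale (4 degrees of freedom), against 0.23 between the 6 mouse means, and for Bbc3 it was 0.46 against 0.22. In Phlda3, Sesn2 and Zmat3 the mouse means varied more, with an SD of 0.51, 0.60 and 0.52, against 0.25, 0.41 and 0.28 within mice. Across the 6 mouse means, none of the 45 pairs of genes correlated at an adjusted p below 0.05 (exact permutation test, two-sided, Pearson and Spearman; the smallest p possible was 0.00278), and 22 pairs were positive and 23 negative. At an unadjusted p below 0.05 there were 7 pairs by Pearson's r and 3 by Spearman's rho. The closest pair was Sesn2 and Zmat3 (r = 0.95, p = 0.00417, adjusted p = 0.188; rho = 0.94, p = 0.0167, adjusted p = 0.375; exact permutation over 6 mice), and r fell to 0.68 without the 2 mice farthest from the median of Sesn2. The strongest negative pair was Ccng1 and Zmat3 (r = -0.85, p = 0.0167, adjusted p = 0.313; rho = -0.94, p = 0.0167, adjusted p = 0.375; exact permutation over 6 mice), with r = -0.94 without the 2 mice farthest from the median of Ccng1.

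Other known p53 target genes included some that changed by far more. Of 40 on the list, 39 were in the table and 38 tested, and 9 were significantly higher and 1 lower in the tumors (26.3%, against 17.2% of all genes, of which 10.2% were higher and 6.99% lower). Their median log2 fold change was 0.20, against -0.21 for the 10 genes and 0.01 for all genes. By adjusted p alone 12 were higher and 6 lower, against 14.8% and 13% of all genes. Scaling to the epithelial markers, 2 of which were themselves higher in the tumors, shifts the median of all genes to -0.59. The split was then 8 higher and 10 lower, against 5.32% higher and 22.8% lower of all genes.

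**Figure D3:**
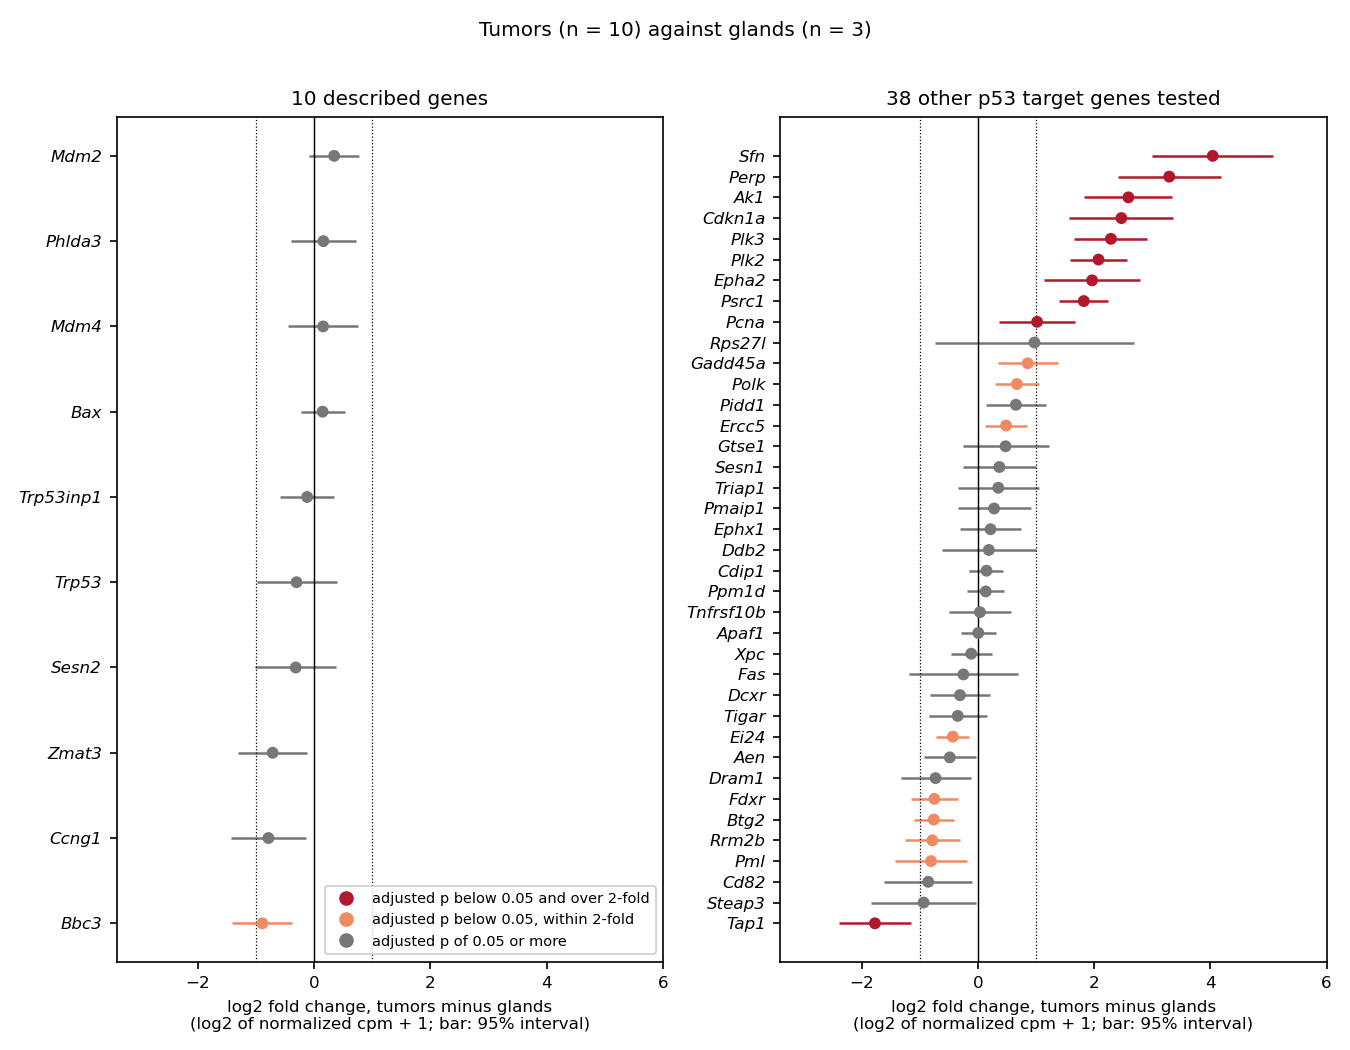
Log2 fold change of tumors (n = 10) against glands (n = 3) with its 95% interval for the 10 genes (left) and the 38 other p53 target genes tested (right); dark red points met an adjusted p below 0.05 and 2-fold, light red points the adjusted p only, grey points neither, and dotted lines mark 2-fold. The 10 genes lie between -0.89 (Bbc3) and 0.34 (Mdm2), while the other targets run from -1.77 (Tap1) to 4.04 (Sfn).

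The 3 largest increases among the 38 were those of Sfn, Perp and Ak1. Sfn, which encodes 14-3-3 sigma and is prominent in stratified epithelium, had a median of 150 normalized cpm in the tumors, from 91.0 to 656, and 12.1, 10.6 and 6.34 in the glands (log2 fold change 4.04 ± 0.48 SE, adjusted p = 2.55e-05, limma). Perp, a desmosome-associated membrane protein that is also a target of p63, had a median of 640 in the tumors, from 407 to 1631, and 48.1, 76.0 and 103 in the glands (log2 fold change 3.29 ± 0.41 SE, adjusted p = 3.71e-05, limma). Ak1, an adenylate kinase, was between 25.5 and 80.1 in the tumors and between 5.47 and 7.36 in the glands (log2 fold change 2.59 ± 0.35 SE, adjusted p = 7.76e-05, limma). In all 3, every tumor lay above every gland, as in 10.7% of all genes tested. The squamous markers separated the same libraries, with sums of 461 to 3419 normalized cpm in the tumors and 6.47 to 21.3 in the glands, and their part in these increases was not tested.

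Cdkn1a (chr17:29090979-29100722, plus strand), the gene for the cell cycle inhibitor p21 and the textbook p53 target, had 58.1, 61.0, 165, 64.1, 77.8, 79.2, 190, 37.9, 52.8 and 41.8 normalized cpm in tumors 1 to 10 and 16.9, 11.1 and 9.63 in the glands. Tumors 3 and 7 were far above the rest, and even the lowest tumor exceeded the highest gland. The log2 fold change was 2.47 ± 0.42 (SE; 95% interval 1.57 to 3.36, adjusted p = 0.000458, limma). The only lower gene was Tap1, a peptide transporter of antigen presentation, at 15.9 to 55.8 in the tumors and 83.3 to 148 in the glands (log2 fold change -1.77 ± 0.29 SE, adjusted p = 0.000366, limma). The part of the lymphocyte markers, given above, in the level of Tap1 was not tested. The remaining higher genes were the polo-like kinases Plk2 (2.07) and Plk3 (2.29), the ephrin receptor Epha2 (1.96), the microtubule regulator Psrc1 (1.82) and the replication clamp Pcna (1.02). Pcna lay just past 2-fold and was within it without tumor 1 (0.91), tumor 5 (0.98), tumor 9 (0.96) or tumor 10 (0.99), and its adjusted p was 0.119 without gland 1 and 0.119 without gland 2.

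The targets Pmaip1, Fas and Ppm1d did not pass. By the adjusted p alone, Btg2 (-0.76), Rrm2b (-0.79), Fdxr (-0.75), Ei24 (-0.43) and Pml (-0.81) were lower within 2-fold (limma). Gadd45a (0.85), Polk (0.67) and Ercc5 (0.48) were higher in the same way. Pmaip1, which encodes NOXA, had 3.78 to 10.9 normalized cpm in the tumors and 2.68 to 7.80 in the glands (log2 fold change 0.28 ± 0.29 SE, adjusted p = 0.532, limma). Fas, a death receptor, had 6.70 to 34.4 in the tumors and 11.3 to 40.8 in the glands (log2 fold change -0.25 ± 0.44 SE, adjusted p = 0.715, limma), again with gland 3 and tumor 9 the highest. With the ribosomal protein level as a covariate Fas passed, at -1.18 (adjusted p = 0.00227). Ppm1d, the phosphatase that switches p53 signaling off, had 16.9 to 26.3 in the tumors and 16.3 to 20.3 in the glands (log2 fold change 0.13 ± 0.15 SE, adjusted p = 0.545, limma).

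The relatives of p53 rose while Trp53 did not pass the test. Among 24 listed regulators and relatives, 23 were tested, of which 3 were higher and 0 lower (13%, against 17.2% of all genes; the adjusted p alone was below 0.05 for 4 higher and 2 lower, limma, against 14.8% and 13% of all genes). Trp63, the p53 relative that maintains basal and stratified epithelium, had a median of 167 normalized cpm in the tumors, from 110 to 298, and 23.9, 28.6 and 23.2 in the glands (log2 fold change 2.68 ± 0.24 SE, adjusted p = 1.82e-06, limma). Trp73, the other relative, had a median of 23.1 in the tumors, from 11.6 to 50.4, and 1.24, 2.27 and 0.61 in the glands (log2 fold change 3.54 ± 0.39 SE, adjusted p = 1.25e-05, limma). No tumor overlapped a gland in either gene. Of the basal epithelial markers, a list that includes Trp63, all 7 tested were called (17.2% of all genes), with the keratins Krt5 (2.82), Krt14 (1.73) and Krt17 (5.21) higher beside Trp63 and the contractile genes Acta2 (-4.32) and Myh11 (-5.05) and the oxytocin receptor Oxtr (-4.52) lower, and in each all tumors lay on one side of all glands. The list summed to 929 to 4309 normalized cpm in the tumors and 674 to 2178 in the glands, and its part in the change of Trp63 was not tested. An antisense transcript, Trp73os, shares 280 bases of exon with Trp73, and whether the counting used strand is not given in the sources used here. The third higher gene, Rpl11, a ribosomal protein that binds MDM2, was highest in tumor 1 (53.6) and lowest in gland 1 (5.65), with gland 3 at 46.2 (log2 fold change 1.31 ± 0.42 SE, adjusted p = 0.0308, limma), and lost its call with edgeR (adjusted p = 0.194), with DESeq2 (adjusted p = 0.159), without gland 1 (adjusted p = 0.281) and without gland 2 (adjusted p = 0.159).

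**Figure D4:**
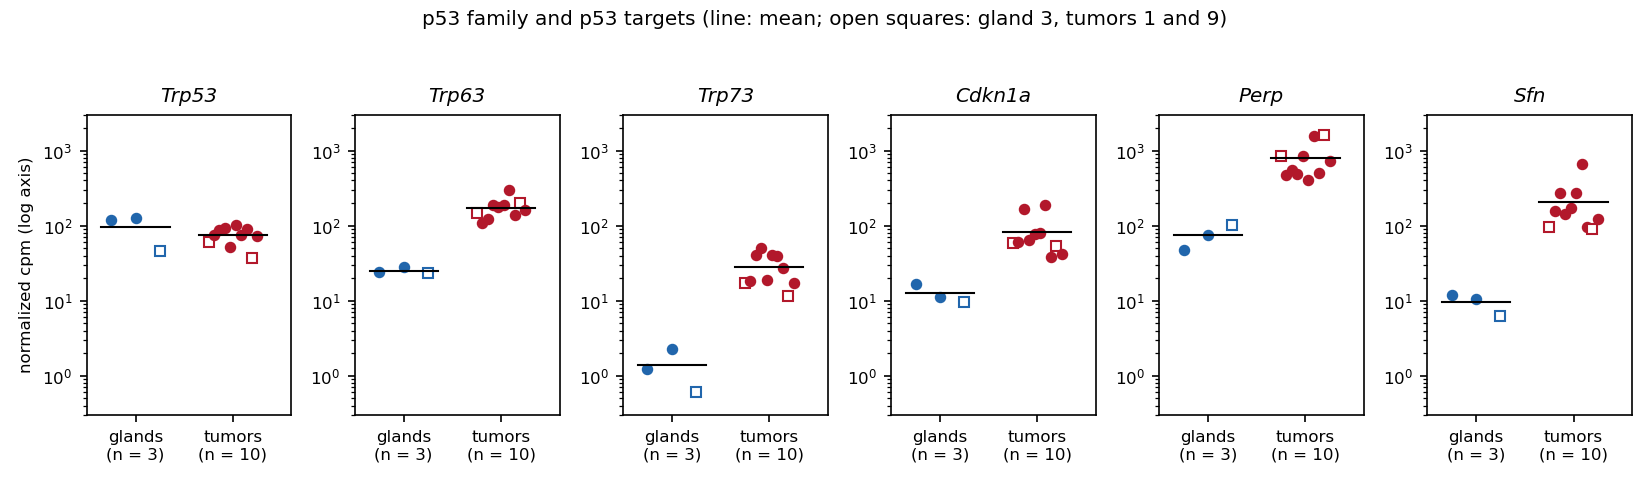
Normalized cpm (vertical axis, log scale) of the p53 family genes Trp53, Trp63 and Trp73 and of the targets Cdkn1a, Perp and Sfn in each library; points are libraries, lines are means, and open squares are gland 3 and tumors 1 and 9. Trp53 overlaps between the groups, whereas all 10 tumors exceed all 3 glands in the other genes, for Trp63 from 110 upward against 28.6 at most.

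Cdkn2a, which encodes p16Ink4a and p19Arf from overlapping transcripts that a count per gene does not separate, fell under the filter on low values. It had a median of 4.33 normalized cpm in the tumors, from 2.88 to 9.44, and 0.51, 0.41 and 0.73 in the glands. Every tumor lay above every gland, and in the fit without the filter, in which 20.6% of 15213 genes were called and 10.5% were called higher, the log2 fold change was 1.84 ± 0.26 (SE, adjusted p = 9.09e-05, limma). Tumor 7 had the highest level of Cdkn2a, of Cdkn1a (190) and of Trp63 (298).

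The Bcl2 family, in which Bax and Bbc3 act, held 13 tested genes besides them, and 3 were higher and 0 lower (23.1%, against 17.2% of all genes). The BH3-only gene Bik was at 12.6 to 45.6 normalized cpm in the tumors and 6.42 to 16 in the glands (log2 fold change 1.21, adjusted p = 0.0141, limma), and Bok, an effector related to Bax, at 13.8 to 70.8 and 11 to 13.5 (log2 fold change 1.10, adjusted p = 0.0244, limma). Both lost the call under several alternatives, among them leaving out gland 1 (adjusted p = 0.119 and 0.103) or gland 2 (0.0537 and 0.0586); without gland 3 Bok had an adjusted p of 0.0506, and without tumor 7 its change was within 2-fold (0.95). Bcl2a1b, an inhibitor of apoptosis from a family of near-identical copies among which reads may be split, was higher by 2.24 on the log2 scale (adjusted p = 0.0304, limma, and 0.0815 by edgeR). It lost the call without gland 1 (adjusted p = 0.119) and without gland 2 (adjusted p = 0.217). The part of the macrophage markers, given above, in this value was not tested. The BH3-only gene Bid was higher in all 10 tumors but within 2-fold (log2 fold change 0.96, adjusted p = 0.000976, limma), and past it without gland 3 (1.12).

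Of 8 close relatives of the described genes listed, 6 were tested and 0 met the criterion (17.2% of all genes), with 1 past the adjusted p alone (27.8% of all genes): Sesn3, at -0.64 (adjusted p = 0.00775, limma), named after its values were seen. The fitted changes of Sesn1, a further p53 target, and of Ccng2 were 0.37 and 0.13. Phlda2, a relative of Phlda3 that the filter left out, had 1.18 to 5.56 normalized cpm in the tumors and 0 to 0.39 in the glands and was higher without the filter (log2 fold change 1.51, adjusted p = 0.00179, limma).

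Because Sesn2 also answers to ATF4, a list of 10 genes of the integrated stress response was examined, with Sesn2 itself among the 10. Of these, 9 were tested, including Sesn2, which was not called. In the list 2 were higher (Atf3, 1.92, and Ddit4, 1.28) and 2 lower (Phgdh, -2.99, and Asns, -1.61), which is 44.4% of the 9 against 17.2% of all genes. Atf3, a stress-induced transcription factor, was at 28.0 to 74.7 normalized cpm in the tumors and 8.65 to 12.7 in the glands (adjusted p = 9.02e-05, limma). Asns, the asparagine synthetase, was at 8.88 to 35.4 and 41.2 to 61.1 (adjusted p = 0.000934, limma). The list moved in both directions, with a median log2 fold change of -0.14, and Atf4 itself was not called (-0.14, adjusted p = 0.623, limma). Ddit4 was within 2-fold (0.66) when scaled to the epithelial markers.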

How the data were processed

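Total RNA of 10 tumors and 3 glands was sequenced as paired-end reads, mapped with Rsubread to mm10 and counted per gene with featureCounts, and edgeR normalized the counts. The signal values deposited by the authors are these counts divided by an effective library size. In each library 100% of them were whole multiples of the value of 1 read (tolerance 0.001), so that reads could be recovered. Genes at 5 normalized cpm or less in most libraries were left out (3418). limma 3.58.1 (R 4.3.3; lmFit, eBayes with trend) was run on log2(normalized cpm + 1) of 11795 genes in the 13 libraries, with condition alone as the model. Folds on this scale understate the change of low genes. Alternatives were edgeR 4.0.16 and DESeq2 1.42.0 on recovered reads, other scalings, filters, pseudocounts, mouse terms and left-out libraries. The fits were tested on simulated data. The members, lists and tests were chosen with earlier results of these data known. All members were named, with the 3 largest rises and falls called in each list and Cdkn1a, Cdkn2a, Trp63, Trp73, Perp, Pmaip1, Fas and Ppm1d, and any further gene named was chosen after its values were seen. Coordinates and promoter windows are those of RefSeq GRCm38.p6, matched by Entrez ID for 15106 genes. Exon lengths and shared exon bases are those of the GENCODE mouse annotation. The p-values of the main fit set the group difference against the variation among samples within the groups, counting each tumor as independent. Those of the gene pairs come from permutations over the 6 mouse means. Reads that match a pseudogene such as Trp53-ps or Mdm4-ps equally well could not be set apart. The labels name a pair of sequencing sites without assigning libraries to them, so no batch could be examined.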

Additional observations from a re-analysis of the deposited data

Results flagged for a closer look

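Values that stood apart from their group by Dixon's gap test (a gap over range above 0.466 for 10 samples) were looked for in the 10 tumor values of 53 genes. These are genes named in the text, some of them chosen after their values were seen. On the linear scale of normalized cpm 9 genes passed, 6 of them through tumor 7. Chance alone gives about 1 in 20 independent sets of normally distributed values. The genes here share the same tumors and linear values need not be normal, so the 9 cannot be judged against that rate. On the log2 scale used for the fits 1 gene passed, Phlda3. Tumor 7 had 168 normalized cpm of Phlda3, against 96.1 in the next tumor, a gap of 0.637 of the range (0.503 on the log2 scale). The linear gap of tumor 7 was 0.684 of the range for Sfn, 0.516 for Trp63, 0.605 for Epha2, 0.611 for Bok and 0.653 for Krt17, and the log2 gaps of these 5 genes were 0.395 to 0.451. Tumor 9 stood apart for Bcl2a1b (0.600), tumor 6 for Asns (0.542) and tumor 4 for Oxtr (0.533), each on the linear scale alone. The summed squamous markers of tumor 7, at 3419 normalized cpm, and basal epithelial markers, at 4309, were also the highest of the 10 tumors. The share of ribosomal protein genes in tumor 7 was 3.35%, near the tumor median of 3.46%. The part of these marker levels in the values of tumor 7 was not tested.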

How the results depend on the processing

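Across 29 alternative fits, of which 13 left out 1 library each, the count of described genes called was 0 except with libraries scaled to the epithelial markers (3 lower: Bbc3, -1.48, Ccng1, -1.41, and Zmat3, -1.31), with the short noncoding RNA level (1) or the ribosomal protein level (1) as a covariate, and without gland 3 (0 to 1 over the left-out libraries). With the short noncoding RNA level the sign turned for Trp53 (0.32), Bax (-0.10), Sesn2 (0.095) and Phlda3 (-0.042), and with the ribosomal protein level for Trp53 (0.31), Bax (-0.10) and Sesn2 (0.18). Epithelial scaling turned Mdm2 (-0.28), Mdm4 (-0.46), Bax (-0.48) and Phlda3 (-0.46). The markers of that scaling include Krt7 and Cldn4, which were themselves higher in the tumors. Over the left-out libraries Phlda3 ran from -0.013 (without gland 2) to 0.35 and Trp53inp1 from -0.36 to 0.10 (without gland 3), and Mdm4 ran from 0.0055 (without gland 2) to 0.34 (without gland 1), Bax from 0.036 (without gland 2) to 0.30 (without gland 3) and Sesn2 from -0.55 (without gland 3) to -0.16 (without gland 1). Sesn2 passed the adjusted p with epithelial scaling (-0.91, adjusted p = 0.0184), and Trp53inp1 was at 0.066 without tumors 1 and 9 and gland 3. Over all genes the count of 2029 became 3141 without the filter, 3314 with epithelial scaling (628 higher, 2686 lower) and 1636 to 2627 without 1 library. The other p53 targets called, 10, became 18 with epithelial scaling and were 9 to 13 without 1 library. Among the other lists, the calls of Pcna, Bik, Bok, Bcl2a1b and Rpl11 were lost under several alternatives, with values of Pcna down to 0.38 with the ribosomal protein level.

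The replicate number could be used as a block for tumors 1 to 3 and glands 1 to 3 only. The deviations of same-numbered libraries correlated at -0.58, 0.04 and -0.66, and the animals differ, so the samples share only a number. With the replicate block 529 genes, 0 described genes and 5 other p53 targets were called, and Phlda3 was at -0.12; the same 6 libraries without the block gave 1320 genes and again -0.12 for Phlda3. Under the block the calls of Cdkn1a (adjusted p = 0.0617), Psrc1 (0.0609), Tap1 (0.0806), Asns (0.058), Ddit4 (0.180) and Epha2 (0.201, and 0.0587 in the same libraries without the block) were lost. These calls were lost by the adjusted p, and the log2 fold change of Cdkn1a was 2.68 under the block, against 2.47 in the main fit. The 3 glands limit every comparison, and the low levels of Bbc3, Sesn2 and Zmat3 rest on as few as 18 reads in a tumor. All p-values here are from limma unless another tool is named.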

Other observations

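Mitotic genes, which p53 is known to repress indirectly through p21 and the DREAM complex, were partly higher in the tumors, in which Cdkn1a was higher too. Of 8 proliferation genes, 3 were significantly higher and 0 lower (37.5%, against 17.2% of all genes tested), and 6 were higher by adjusted p alone (limma, against 14.8% of all genes), without Mki67 (adjusted p = 0.212) and Plk1 (adjusted p = 0.209). The 3 were Ccnb1 (log2 fold change 1.56, adjusted p = 9.62e-05), Bub1 (1.45, adjusted p = 0.000719) and Cdk1 (1.37, adjusted p = 0.000353), and in each of these every tumor lay above every gland, as in 10.7% of all genes tested. The 8 genes summed to 305 to 509 normalized cpm in the tumors and 139 to 304 in the glands, where gland 3 was the lowest and gland 2 the highest. Tumor 9, the lowest tumor for Trp53 and Bbc3, was also the lowest for this sum (305).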
